A study of Mus musculus with 12 samples.

Results

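The mRNAs of 10 proteins that write, read or erase m6A, the methyl mark on adenosines inside mRNA, were followed in RNA that 4T1 cells carried on and off polysomes. They were taken by gene symbol, and they are 10 of the 55376 genes in the count file. Mettl3, Mettl14, Mettl16, Wtap and Virma encode writers, Ythdf1, Ythdf2 and Ythdf3 encode readers, and Alkbh5 and Fto encode erasers. 4T1 is a mouse mammary carcinoma line. The cells had been stably transfected with the empty vector (mock, genotype mock) or with the full-length Mettl7a1 cDNA in the pBICEP-CMV-2 vector (METTL7A1), which a viral promoter drives, so METTL7A1 is in excess and not at its natural level. Whether each line was a clone or a mixed population is not given in the sources used here. Both lines received cycloheximide, which holds ribosomes on the mRNA, before lysis and separation on sucrose gradients. Gradient fractions 3 to 7, with free subunits and monosomes, made up the sub-polysomal pool, and fractions 8 to 11, with light and heavy polysomes, the polysomal pool. RNA-Seq gave 3 libraries for each pool of each line and 12 libraries in all, and replicates carry the letters A, B and C (mock) or D, E and F (METTL7A1). The gradients are described as run on biological replicates, but no label ties the 3 libraries of a group to separate cultures, so p-values measure the spread between these libraries, which may be technical in part.

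In the nucleus, METTL3 transfers the methyl group and METTL14 helps it to hold the RNA, while WTAP and the scaffold VIRMA bind this pair and place it on mRNA. METTL16 works alone on few targets, the YTHDF proteins bind m6A in the cytoplasm and are known for their effects on mRNA decay and translation, and ALKBH5 and FTO remove methyl groups from RNA. Several of these enzymes have been studied in mammary carcinoma cells for their part in growth and spread.

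The transfected gene separated the lines in each library. Mettl7a1, which encodes a methyltransferase-like protein, had 2.82, 1.26 and 3.16 CPM (counts scaled to a common library size, with TMM factors) in mock sub-polysomal RNA and 3.28, 3.02 and 2.85 CPM in mock polysomal RNA. In METTL7A1 cells it had 395, 284 and 236 CPM in sub-polysomal RNA and 309, 313 and 273 CPM in polysomal RNA. All 6 METTL7A1 libraries therefore stood far above all 6 mock libraries, as their labels say. The pools also differed by known transcripts. Neat1, a nuclear RNA that is not translated, had 75.1, 109 and 162 CPM in sub-polysomal and 19.8, 37.9 and 33.1 CPM in polysomal RNA of mock cells, and 208, 134 and 223 CPM against 54.8, 46.7 and 50.03 CPM in METTL7A1 cells. Malat1, also nuclear, was lower in polysomal RNA of mock (-0.82, adjusted p = 0.04997) and METTL7A1 cells (-0.96, adjusted p = 0.01), with groups that overlapped. Of the translated mRNAs, Pkm was higher in polysomal RNA of both lines (0.97 each), and Actb did not pass (0.08 and 0.24). Between the lines, Neat1 was higher in METTL7A1 cells in sub-polysomal (0.68, adjusted p = 0.0406, groups overlapping) and polysomal RNA (0.74, adjusted p = 0.0495). The epithelial markers Krt8, Krt18, Epcam and Cdh1 summed to between 1809 and 4046 CPM, with Krt18 the most abundant. Of the markers of other cell types, Ptprc, Cd3e and Cd79a (blood cells) had at most 1 count in a library, Adipoq and Plin1 (fat cells) at most 1, and Pecam1 and Cdh5 (endothelium) at most 4. Cd3e and Col1a2 had 0 counts in all libraries. The fibroblast markers Col1a1, Col1a2 and Pdgfra summed to between 0.79 and 6.01 CPM, nearly all from Pdgfra.

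All 10 mRNAs passed the filter on low counts, as did 12224 genes of the series. Library totals lay between 1817520 counts (mock sub-polysomal replicate A) and 6966156 counts (mock polysomal replicate C), and 3 counts were worth between 0.431 and 1.65 CPM before TMM scaling, so each of the 10 was well above that level in all libraries. Levels of different genes were compared per kilobase of merged exons. Ythdf1 stood highest in each of the 4 groups, with 22.4 ± 4.78 CPM per kb in mock sub-polysomal, 25.9 ± 1.98 in mock polysomal, 22.5 ± 2.04 in METTL7A1 sub-polysomal and 31.5 ± 2.25 in METTL7A1 polysomal RNA (SD, n = 3). Wtap followed in both sub-polysomal groups, with 16.3 ± 3.34 and 14.7 ± 2.58 CPM per kb in mock and METTL7A1 cells, and Alkbh5 in both polysomal groups, with 15.3 ± 0.191 and 14.8 ± 0.35 CPM per kb (SD, n = 3). Alkbh5 overlapped Mettl3 (14.8 ± 1.58 CPM per kb) in mock polysomal RNA. In mock sub-polysomal RNA the ranges of Ythdf1 and Wtap overlapped, as did those of Wtap and Ythdf2 and of Ythdf2 and Alkbh5, so the order of neighbours among these 4 was within the spread, while Ythdf1 did not overlap Ythdf2 or Alkbh5. Mettl3, Ythdf3 and Mettl16 formed the middle, between 6.25 and 8.40 CPM per kb there, again with overlapping ranges of neighbours.

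At the low end, Mettl14 had 3.49 ± 0.686, Virma 2.02 ± 0.227 and Fto 1.53 ± 0.334 CPM per kb in mock sub-polysomal RNA (SD, n = 3). Mettl14 did not overlap Mettl16 above it or Virma below it, while Virma and Fto overlapped. In both polysomal groups Fto was above Virma without overlap, at 2.96 ± 0.249 against 2.21 ± 0.0793 CPM per kb in mock and 2.19 ± 0.324 against 1.55 ± 0.207 CPM per kb in METTL7A1 cells (SD, n = 3). The length matters for a pair of these genes. The merged exons of Fto span 12371 bases and its longest coding transcript 4707, and for Wtap the lengths are 4903 and 3187. Per kb of that transcript, a scale chosen after the data were seen, Fto stood at 4.03 and Wtap at 25.1 CPM per kb in mock sub-polysomal RNA, which put Fto above Mettl14 (3.58) and Wtap above Ythdf1 (22.9). In polysomal RNA, Wtap then stood at 19.9 in mock and 19.6 CPM per kb in METTL7A1 cells, above Alkbh5 in both.

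**Figure D1:**
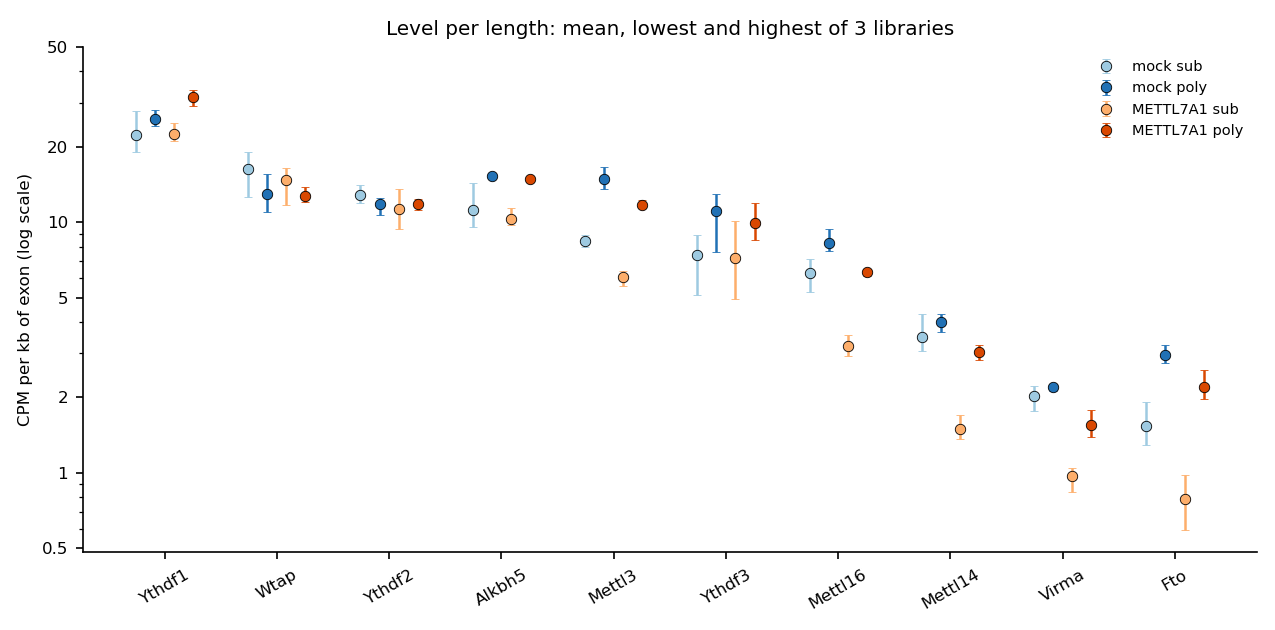
Level of each mRNA in CPM per kb of merged exons (log scale), with the mean as a point and the lowest and highest of 3 libraries as the ends of the bar, for the 4 groups. Ythdf1 had the highest mean in each group, and Virma or Fto the lowest.

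The balance between partners was described per library and was not tested. The Mettl3 to Mettl14 ratio, per length, was 1.95, 2.84 and 2.60 in mock sub-polysomal RNA and 3.26, 4.34 and 4.68 in METTL7A1 sub-polysomal RNA. The 3 METTL7A1 values lay above the 3 mock values, and in polysomal RNA the lines overlapped, with 3.15 to 4.15 in mock and 3.52 to 4.12 in METTL7A1 cells. Of the erasers, the Alkbh5 to Fto ratio was 7.45, 7.37 and 6.92 in mock sub-polysomal and 16.5, 11.5 and 12.4 in METTL7A1 sub-polysomal RNA. In polysomal RNA it was 4.78, 5.60 and 5.25 in mock and 7.34, 5.91 and 7.31 in METTL7A1 cells, so the METTL7A1 libraries were higher in both pools. The size of this ratio depends on the length used, but the order of the groups does not, since the length multiplies all libraries alike. Among the readers, Ythdf1 made up 47.7% to 55.6% of the summed level per length of Ythdf1, Ythdf2 and Ythdf3 in mock sub-polysomal RNA, Ythdf2 28.1% to 33.0% and Ythdf3 13.5% to 22.4%. These shares were 57.1% to 61.7%, 21.5% to 22.7% and 15.6% to 21.4% in METTL7A1 polysomal RNA, with Ythdf1 above its range in either mock pool, by a narrow margin over mock polysomal RNA (50.2% to 56.9%), and Ythdf2 below its range there. In METTL7A1 sub-polysomal RNA the Ythdf1 share was 51.2% to 59.5% and overlapped both mock pools.

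The comparisons asked which of these mRNAs were loaded on polysomes in each line, and how each pool differed between the lines. A gene passed at an adjusted p below 0.05 from edgeR's quasi-likelihood test over the 12224 genes, with no limit on the log2 change. Each pool was scaled to its own total, so a change is relative to the other RNA of that pool, and not a change in molecules per cell. In such bulk RNA a lower level in each cell and fewer cells with the mRNA cannot be told apart. In mock cells, 4 of the 10 mRNAs were higher in polysomal RNA and 0 lower, where 23.3% of all tested genes were higher and 23.7% lower. In METTL7A1 cells, 7 were higher in polysomal RNA and 0 lower, against 30% and 29.3% of all tested genes. At an unadjusted p below 0.05 from edgeR, 5 were higher in mock and 7 in METTL7A1 cells and 0 lower in either, where 3353 of 12224 genes were higher and 3264 lower in mock and 3952 higher and 3783 lower in METTL7A1 cells. DESeq2 and limma-voom each gave 4 and 7 higher and 0 lower. Over all tested genes, DESeq2 called 2455 as higher against 2964 as lower for mock, and 3245 against 3601 for METTL7A1. With limma-voom these calls were 2809 against 2907 (mock) and 3636 against 3587 (METTL7A1). The median log2 change of the 10 was 0.33 in mock and 0.59 in METTL7A1 cells, and that of all tested genes 0.05 and 0.06.

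Between the lines, each pool was compared on its own. In sub-polysomal RNA, 5 of the 10 were lower in METTL7A1 than in mock cells and 0 higher, where 14.5% of all tested genes were lower and 16.8% higher. In polysomal RNA 1 was lower and 0 higher, against 8.28% and 9.69% of all tested genes. At an unadjusted p below 0.05 from edgeR, 5 of the 10 were lower in each pool and 0 higher, where 2468 of 12224 genes were lower and 2698 higher in sub-polysomal RNA and 1845 lower and 1974 higher in polysomal RNA. DESeq2 and limma-voom each gave 4 lower in sub-polysomal RNA and 1 lower in polysomal RNA, Mettl16 with DESeq2 and Virma with limma-voom, and 0 higher in either. Of 12224 genes, DESeq2 gave 1717 lower and 1988 higher in sub-polysomal and 976 lower and 1138 higher in polysomal RNA. With limma-voom, 1641 were lower and 2005 higher in sub-polysomal and 1021 lower and 1254 higher in polysomal RNA. The median log2 change of the 10 was -0.32 in sub-polysomal and -0.25 in polysomal RNA, where the medians of all tested genes were 0.00 and -0.01.

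Scaling to Actb in place of TMM moved all genes nearly alike. Values given below relative to a median therefore return close to those with TMM, and are no separate test. The median of all tested genes moved to 0.26 in sub-polysomal RNA, and the genes that passed there split into 3283 higher and 667 lower, in place of 2058 and 1776. That scaling left 1234 higher and 495 lower in polysomal RNA (1185 and 1012 with TMM), and 2137 higher and 4230 lower in polysomal against sub-polysomal RNA of METTL7A1 cells (3670 and 3578 with TMM), with a median of all tested genes of -0.18 there. Of the 10 mRNAs, 4 were still lower in sub-polysomal RNA, 0 in polysomal RNA, and 4 were higher in polysomal against sub-polysomal RNA of METTL7A1 cells. In the same comparison of the pools of mock cells, 2 were, where 2075 of all tested genes were higher and 2876 lower. Relative to the median of 0.26, the sub-polysomal log2 changes with Actb scaling were -1.20 for Mettl14, -0.95 for Mettl16, -1.01 for Virma, -0.90 for Fto and -0.46 for Mettl3. Between the pools of METTL7A1 cells, the changes relative to the median were 1.39 for Fto, 0.97 for Mettl14, 0.92 for Mettl16, 0.90 for Mettl3, 0.61 for Virma, 0.46 for Alkbh5 and 0.43 for Ythdf1.

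A stricter rule, an adjusted p below 0.01 and a log2 change beyond 1.5 in either direction, was met by 0 of the 10 in all 4 comparisons with edgeR. It was met by 7.55% of all tested genes between the pools of mock cells, by 12.1% between those of METTL7A1 cells, and by 2.76% in sub-polysomal and 2.13% in polysomal RNA between the lines. Between the pools these were mostly lower in polysomal RNA, with 84 genes higher and 839 lower in mock and 215 higher and 1265 lower in METTL7A1 cells. In the fit to all 12 libraries, no change of the 10 went beyond a log2 of 1.46. With 1 letter left out, that of Fto between the pools of METTL7A1 cells reached 1.51 at the highest, beyond the limit of 1.5. Its adjusted p was at most 0.00017 over all alternatives. Where alternatives are counted for a single mRNA, they keep the adjusted p of 0.05, and this stricter rule is not among them.

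**Figure D2:**
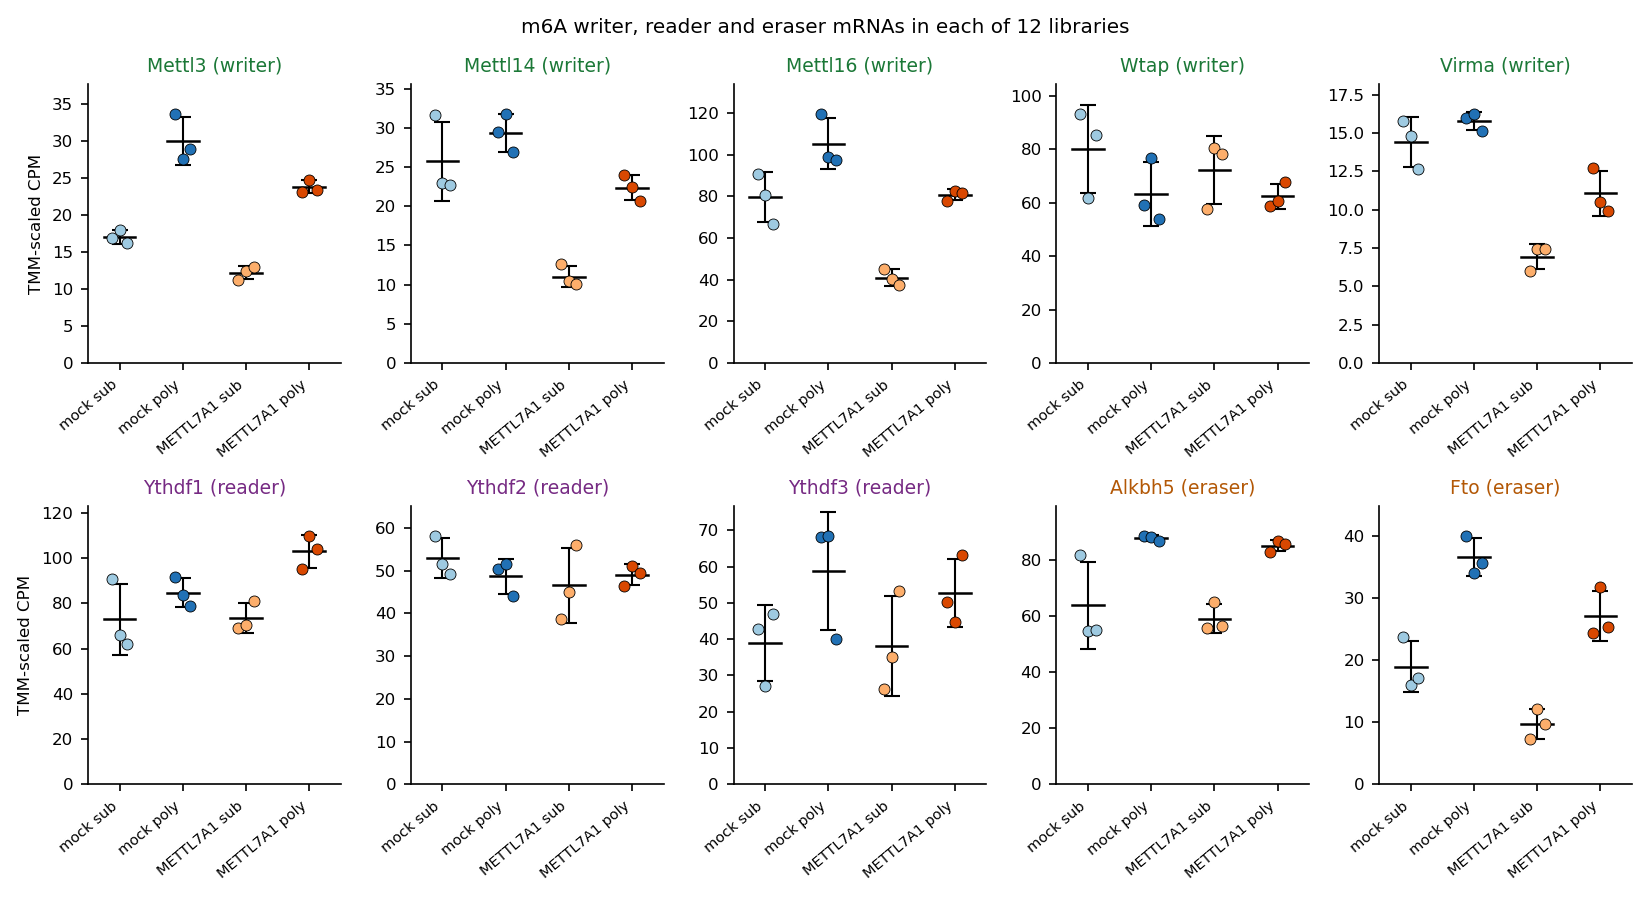
TMM-scaled CPM of the 10 mRNAs in each library (points), with the mean (line) and SD (bars, n = 3) of each group. Mettl3, Mettl14, Mettl16, Virma and Fto were lowest in the 3 METTL7A1 sub-polysomal libraries, while the groups of Wtap, Ythdf2 and Ythdf3 overlapped.

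Mettl3 encodes the catalytic subunit of the main writer complex (chromosome 14, 52294841 to 52305128 of GRCm38, minus strand). Its level was 16.9, 17.9 and 16.2 CPM in mock sub-polysomal RNA and 33.6, 27.5 and 28.9 CPM in mock polysomal RNA. In METTL7A1 cells it was 11.3, 12.4 and 12.9 CPM in sub-polysomal RNA and 23.2, 24.8 and 23.4 CPM in polysomal RNA. The polysomal libraries lay above the sub-polysomal ones in both lines, and in each pool the 3 METTL7A1 libraries lay below the 3 mock libraries. The rise from sub-polysomal to polysomal RNA was 0.82 as a log2 change for mock cells (standard error 0.15, adjusted p = 0.000177) and 0.96 for METTL7A1 cells (standard error 0.15, adjusted p = 3.11e-05). Between the lines the log2 change was -0.47 in sub-polysomal RNA (standard error 0.17, adjusted p = 0.0412) and -0.33 in polysomal RNA (standard error 0.13, adjusted p = 0.0809). The call in sub-polysomal RNA was lost in 10 of 12 alternatives, with adjusted p between 0.0386 and 0.401 and log2 changes between -0.52 and -0.21 over all of them (-0.52 to -0.42 with 1 letter left out), and kept only with RLE factors and without mock replicate A. Mettl3 shares 366 exon bases, 18.1% of its length, with Tox4 on the opposite strand, and as the strand setting of the counting is not stated, reads of that stretch cannot be told apart.

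Mettl14, the RNA-binding partner of Mettl3 (chromosome 3, 123368297 to 123386108, minus strand), had 31.6, 23.0 and 22.7 CPM in mock sub-polysomal RNA and 12.6, 10.4 and 10.0 CPM in METTL7A1 sub-polysomal RNA. In polysomal RNA it had 29.5, 31.8 and 26.9 CPM in mock and 24.0, 22.5 and 20.7 CPM in METTL7A1 cells. No METTL7A1 library reached a mock library of the same pool. The gap was wider in sub-polysomal RNA, but this difference, tested as the shift below, did not pass (adjusted p = 0.132). In sub-polysomal RNA the log2 change was -1.20 (95% confidence interval -1.58 to -0.81, standard error 0.18, adjusted p = 0.000103), the largest fall of the 10. It passed in all 12 alternatives at the adjusted p of 0.05, between -1.29 and -0.94. In polysomal RNA it was -0.39 (standard error 0.14, adjusted p = 0.068). Within mock cells the pools overlapped, with a log2 change of 0.23 (standard error 0.16, adjusted p = 0.234). Within METTL7A1 cells polysomal RNA was higher, with a log2 change of 1.04 (standard error 0.17, adjusted p = 4.95e-05).

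Wtap and Virma belong to the part of the writer complex that holds and places this pair. Wtap, which brings it to nuclear speckles (chromosome 17, 12966796 to 12992546, minus strand), had 93.1, 61.7 and 85.5 CPM in mock sub-polysomal and 57.7, 80.6 and 78.4 CPM in METTL7A1 sub-polysomal RNA. Its polysomal levels were 59.1, 76.7 and 54.0 CPM in mock and 58.9, 60.5 and 67.7 CPM in METTL7A1 cells. All groups of Wtap overlapped. Between the lines its log2 change was -0.14 in sub-polysomal and -0.02 in polysomal RNA (standard errors 0.18 and 0.17). It was the 1 writer with lower values in polysomal than in sub-polysomal RNA, by a log2 change of -0.33 in mock (adjusted p = 0.126) and -0.22 in METTL7A1 cells (adjusted p = 0.291), neither of which passed. Wtap did pass as lower in polysomal RNA of mock cells without mock replicate B (-0.66, adjusted p = 0.00913), while without mock replicate C the value was -0.17 (adjusted p = 0.551). With offsets for GC content, described after the erasers, it passed in both lines (-0.37 with adjusted p = 0.0171 in mock and -0.39 with adjusted p = 0.00922 in METTL7A1 cells).

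Virma, the large scaffold (chromosome 4, 11485958 to 11550684, plus strand), had 15.8, 14.8 and 12.6 CPM in mock sub-polysomal RNA and 5.97, 7.44 and 7.41 CPM in METTL7A1 sub-polysomal RNA. The polysomal libraries had 16.0, 16.2 and 15.1 CPM in mock and 12.7, 10.5 and 9.94 CPM in METTL7A1 cells. The lines did not overlap in either pool. Virma was lower in METTL7A1 cells by a log2 change of -1.01 in sub-polysomal RNA (95% confidence interval -1.43 to -0.58, standard error 0.20, adjusted p = 0.00109), which passed in all 12 alternatives at the adjusted p of 0.05. In polysomal RNA the log2 change was -0.51 (standard error 0.16, adjusted p = 0.0313), the 1 call among the 10 mRNAs there. That call was lost in 8 of 12 alternatives, with adjusted p between 0.0268 and 0.149 and log2 changes between -0.62 and -0.41 over all of them, DESeq2 (0.0596) and the fits without mock replicate A, B or C and without METTL7A1 replicate E or F included. Polysomal against sub-polysomal RNA gave 0.16 in mock (adjusted p = 0.458) and 0.66 in METTL7A1 cells (standard error 0.19, adjusted p = 0.00611). The latter was lost without METTL7A1 replicate D (0.46, adjusted p = 0.102), with Actb scaling (0.43, adjusted p = 0.097) and with GC offsets (0.38, adjusted p = 0.0795).

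Mettl16 (chromosome 11, 74770830 to 74828525, plus strand) encodes a methyltransferase outside that complex. Its best known mRNA target is that of Mat2a, which encodes the enzyme that makes S-adenosylmethionine, the methyl donor of all these writers, and which METTL16 binds at hairpins in the 3′ untranslated region. These sites are shown because they connect a writer with the mRNA that supplies its substrate. The letters TACAGAGAA and TACAGAAAA, as they read in the DNA alphabet, were searched on the transcript strand only. The longest coding Mat2a transcript of GENCODE M21 (3387 bases) holds 5 of the first and 1 of the second, all in its 3′ untranslated region. Over 21877 coding transcripts, of all lengths, 4.17% hold the first and 3.55% the second. Each line gives 27 bases with the matching letters in capitals.
Mat2a site 1: ggcgtaggtTACAGAGAAgccttcaag
Mat2a site 2: cttgtgataTACAGAGAAgtcacaggg
Mat2a site 3: tggtgtagcTACAGAGAAaccagcttc
Mat2a site 4: tggcgtaagTACAGAGAAgccatcacc
Mat2a site 5: aaggtgtccTACAGAAAAaccttgggt
Mat2a site 6: ctggtgtggTACAGAGAAgccagcttg

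On the minus strand of GRCm38 these windows are chr6:72434236-72434262, chr6:72433452-72433478, chr6:72433273-72433299, chr6:72433158-72433184, chr6:72433047-72433073 and chr6:72432939-72432965, from site 1 to site 6. A match is a description of the letters and not a measured methylation site.

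The level of Mettl16 itself was 90.9, 80.6 and 66.9 CPM in mock sub-polysomal RNA and 45.1, 40.4 and 37.3 CPM in METTL7A1 sub-polysomal RNA. Polysomal RNA had 119, 99.0 and 97.3 CPM in mock and 77.8, 82.7 and 81.7 CPM in METTL7A1 cells. The METTL7A1 libraries lay below the mock libraries in both pools without overlap. The log2 change between the lines was -0.95 in sub-polysomal RNA (95% confidence interval -1.26 to -0.63, standard error 0.15, adjusted p = 0.000156) and passed in all 12 alternatives at the adjusted p of 0.05. In polysomal RNA it was -0.38 (standard error 0.14, adjusted p = 0.0601), and it passed with RLE factors (adjusted p = 0.0492) and DESeq2 (adjusted p = 0.0336). Polysomal RNA was higher than sub-polysomal RNA by 0.42 in mock (standard error 0.14, adjusted p = 0.0207) and by 0.98 in METTL7A1 cells (standard error 0.15, adjusted p = 1.58e-05). The call in mock cells was lost without mock replicate C (0.35, adjusted p = 0.118) and with Actb scaling (0.33, adjusted p = 0.132).

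Mat2a, with the sites shown above, had 187, 140.1 and 148 CPM in mock and 130.3, 130.3 and 139.6 CPM in METTL7A1 sub-polysomal RNA. Its polysomal levels were 241, 217 and 197 CPM in mock and 205, 217 and 209 CPM in METTL7A1 cells. The sub-polysomal groups did not overlap by a narrow margin and the polysomal groups did. Between the lines, Mat2a had a log2 change of -0.24 in sub-polysomal RNA (standard error 0.14, adjusted p = 0.205) and -0.05 in polysomal RNA (standard error 0.14, adjusted p = 0.833), neither of which passed. It was higher in polysomal RNA of both lines, by 0.47 in mock (standard error 0.14, adjusted p = 0.00952) and 0.66 in METTL7A1 cells (standard error 0.14, adjusted p = 0.000524). The call for Mat2a in mock cells was lost without mock replicate B (0.39, adjusted p = 0.085) and with Actb scaling (0.37, adjusted p = 0.0963). With GC offsets the values for Mat2a were 0.39 in mock (adjusted p = 0.0104) and 0.37 in METTL7A1 cells (adjusted p = 0.0112).

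**Figure D3:**
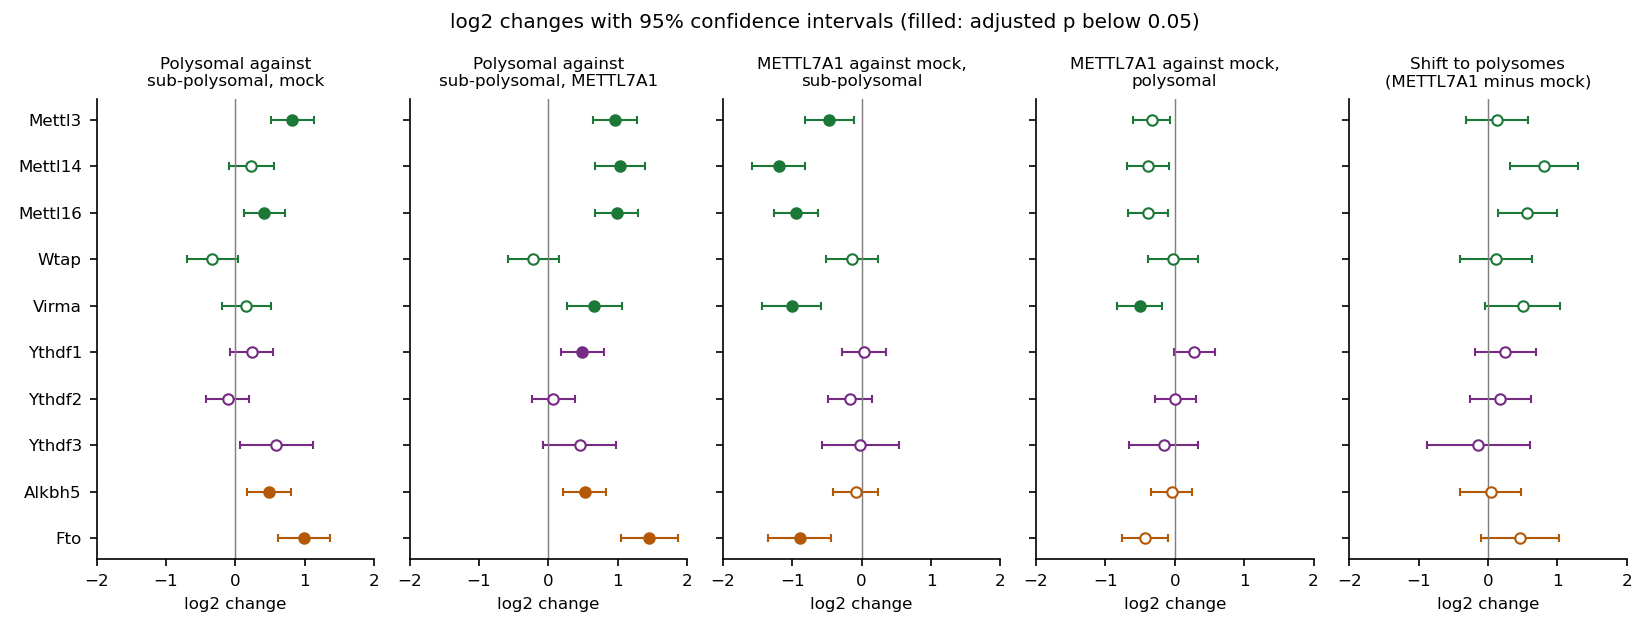
log2 changes of the 10 mRNAs in the 4 comparisons and in the shift to polysomes, with 95% confidence intervals (filled points passed at an adjusted p below 0.05, colours mark writers, readers and erasers). Mettl3, Mettl14, Mettl16, Virma and Fto were lower in METTL7A1 sub-polysomal RNA, with log2 changes between -1.20 and -0.47.

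Of the cytoplasmic readers, 0 of 3 passed between the lines in either pool. Of all tested genes, 14.5% were lower and 16.8% higher in sub-polysomal RNA, and 8.28% lower and 9.69% higher in polysomal RNA. Ythdf1 (chromosome 2, 180904377 to 180920949, minus strand), a reader known for binding m6A on translated mRNA, had 90.9, 66.1 and 62.0 CPM in mock and 69.0, 70.2 and 81.1 CPM in METTL7A1 sub-polysomal RNA. Polysomal RNA held 91.5, 83.7 and 78.7 CPM in mock and 95.2, 109.8 and 104 CPM in METTL7A1 cells. The sub-polysomal groups overlapped, and the polysomal METTL7A1 libraries lay above the mock ones. The log2 change between the lines was 0.03 in sub-polysomal RNA (standard error 0.15, adjusted p = 0.894) and 0.28 in polysomal RNA (standard error 0.14, adjusted p = 0.185), and neither passed. Ythdf1 was the 1 reader that passed between pools, higher in polysomal RNA of METTL7A1 cells by 0.49 (standard error 0.15, adjusted p = 0.00817). That call was lost without METTL7A1 replicate E (0.40, adjusted p = 0.112) and with Actb scaling (0.25, adjusted p = 0.24). In mock cells the value was 0.23 (standard error 0.15, adjusted p = 0.205).

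Ythdf2, the reader best known for mRNA decay (chromosome 4, 132184912 to 132212303, minus strand), had 38.8 to 58.1 CPM over all 12 libraries. Its groups overlapped in each comparison. The log2 changes lay between -0.17 and 0.07 in the 4 comparisons, with adjusted p between 0.426 and 0.973. In sub-polysomal RNA between the lines the 95% confidence interval ran from -0.49 to 0.15.

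Ythdf3 (chromosome 3, 16183212 to 16217037, plus strand), which acts beside both of these, spread most among libraries of a group. It had 42.9, 27.1 and 47.0 CPM in mock and 26.2, 35.0 and 53.3 CPM in METTL7A1 sub-polysomal RNA. Its polysomal levels were 68.0035, 68.4 and 40.1 CPM in mock and 50.1, 44.8 and 63.2 CPM in METTL7A1 cells. Mock polysomal replicate C stood apart from replicates A and B, and all groups overlapped. Polysomal against sub-polysomal RNA gave 0.59 in mock (standard error 0.25, adjusted p = 0.0618) and 0.45 in METTL7A1 cells (standard error 0.25, adjusted p = 0.128). In mock cells Ythdf3 passed without mock replicate C (1.00, adjusted p = 0.00534), without METTL7A1 replicate F (0.59, adjusted p = 0.0401), without a filter on low counts (0.64, adjusted p = 0.00146) and with GC offsets (0.58, adjusted p = 0.00566). Without mock replicate B the value in mock cells was 0.25 (adjusted p = 0.517). In METTL7A1 cells Ythdf3 passed without that filter (0.47, adjusted p = 0.0197). The change between the lines was -0.02 in sub-polysomal and -0.16 in polysomal RNA, with standard errors of 0.26 and 0.24.

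Alkbh5 (chromosome 11, 60537978 to 60558512, plus strand), a nuclear demethylase and the first of the 2 erasers, had 81.8, 54.8 and 55.1 CPM in mock and 55.7, 65.0 and 56.4 CPM in METTL7A1 sub-polysomal RNA. Its polysomal levels were 88.6, 88.4 and 86.6 CPM in mock and 82.9, 86.8 and 85.6 CPM in METTL7A1 cells. All polysomal libraries lay above all sub-polysomal ones, and the lines overlapped in both pools. Polysomal against sub-polysomal RNA gave 0.49 in mock (standard error 0.15, adjusted p = 0.012) and 0.53 in METTL7A1 cells (standard error 0.15, adjusted p = 0.005). The call in mock cells was lost without mock replicate B (0.38, adjusted p = 0.111), without mock replicate C (0.39, adjusted p = 0.108) and with Actb scaling (0.39, adjusted p = 0.116), and that in METTL7A1 cells with Actb scaling (0.28, adjusted p = 0.217). Between the lines Alkbh5 had log2 changes of -0.09 and -0.05 in sub-polysomal and polysomal RNA, with standard errors of 0.15 and 0.14.

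Fto (chromosome 8, 91313525 to 91668439, plus strand), which also acts on the methylated adenosine next to the mRNA cap, had 23.7, 16.1 and 17.2 CPM in mock and 7.30, 12.2 and 9.80 CPM in METTL7A1 sub-polysomal RNA. The polysomal values were 40.0, 34.1 and 35.6 CPM in mock and 24.4, 31.7 and 25.3 CPM in METTL7A1 cells. None of the 4 groups of Fto overlapped, with METTL7A1 sub-polysomal RNA lowest and mock polysomal RNA highest. Polysomal RNA was higher than sub-polysomal RNA by 0.99 in mock (standard error 0.18, adjusted p = 0.000211) and by 1.46 in METTL7A1 cells (standard error 0.19, adjusted p = 4.75e-06), the largest rise of the 10 in each line. Between the lines it was lower in METTL7A1 sub-polysomal RNA by a log2 change of -0.89 (95% confidence interval -1.34 to -0.44, standard error 0.22, adjusted p = 0.00423), and this passed in all 12 alternatives at the adjusted p of 0.05. In polysomal RNA the log2 change was -0.43 (standard error 0.16, adjusted p = 0.0694) and did not pass. Fto shares 144 exon bases, 1.16% of its length, with 4831440D22Rik on the opposite strand.

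Whether an mRNA moved between the pools was tested by the shift, the log2 change between polysomal and sub-polysomal RNA in METTL7A1 cells minus that in mock cells. With edgeR, 0 of 12224 genes passed at an adjusted p below 0.05 (0%), and so 0 of the 10. At an unadjusted p below 0.05, 2 of the 10 had a higher and 0 a lower shift, against 6.7% and 8.93% of all tested genes. DESeq2 called 329 genes and limma-voom 0. DESeq2 gave an adjusted p to all of the 10 but Virma, and 0 of these were called. Without mock replicate A edgeR called 128 genes, and without a filter on low counts 159, again with 0 of the 10. The 2 were Mettl14, with a shift of 0.81 (95% confidence interval 0.32 to 1.29, standard error 0.23, unadjusted p = 0.00261, adjusted p = 0.132), and Mettl16, with a shift of 0.56 (standard error 0.20, unadjusted p = 0.0121, adjusted p = 0.193). Virma had 0.50 and Fto 0.46 (standard errors 0.26 and 0.27). The median shift of the 10 was 0.21 and that of all tested genes -0.01. With Actb scaling the latter was -0.17, and relative to it the shift was 0.82 for Mettl14 and 0.58 for Mettl16. With GC offsets the shift was 0.64 for Mettl14 (standard error 0.23, adjusted p = 0.302) and 0.36 for Mettl16 (standard error 0.20, adjusted p = 0.516). At an unadjusted p below 0.05, 1 of the 10 was left with GC offsets, where 1380 of 12157 genes were, and 1 with Actb scaling, where 1937 of 12224 genes were. An mRNA that passed in sub-polysomal and not in polysomal RNA is therefore not shown to have changed by different amounts in the pools.

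Sequence properties moved with these values. Across 12157 tested genes with a GC content for their longest coding transcript, which are not independent replicates, the log2 change between the lines had a Spearman correlation with GC content of 0.40 in sub-polysomal RNA and 0.12 in polysomal RNA. For the shift it was -0.42, and between the pools -0.09 in mock and -0.28 in METTL7A1 cells. The median log2 change in sub-polysomal RNA was -0.24 for 2780 genes below 45% GC and 0.44 for 2936 genes above 55%. The 10 mRNAs had GC contents of 38.4% to 50.2% with a median of 45.4%, where all tested genes had a median of 50.2%. Mettl14 (41.2%), Mettl16 (44.4%), Virma (44.7%) and Fto (48.1%), which fell in sub-polysomal RNA, were all below that median. So were Ythdf3 (38.4%), Wtap (39.6%), Ythdf2 (46.1%), Ythdf1 (49.1%) and, by a small margin, Alkbh5, which did not pass. With offsets that remove the trend of each library with GC content, chosen after the data were seen, the Spearman correlation became 0.01 in sub-polysomal RNA. Mettl14 then had a log2 change of -0.97 (standard error 0.18, adjusted p = 0.000848), Virma -0.75 (standard error 0.19, adjusted p = 0.00867), Fto -0.69 (standard error 0.21, adjusted p = 0.0196) and Mettl16 -0.67 (standard error 0.15, adjusted p = 0.00251). Mettl3 (50.2% GC) no longer passed, at -0.38 (standard error 0.16, adjusted p = 0.0992). The values are smaller with the offsets, and the 4 mRNAs still passed.

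**Figure D4:**
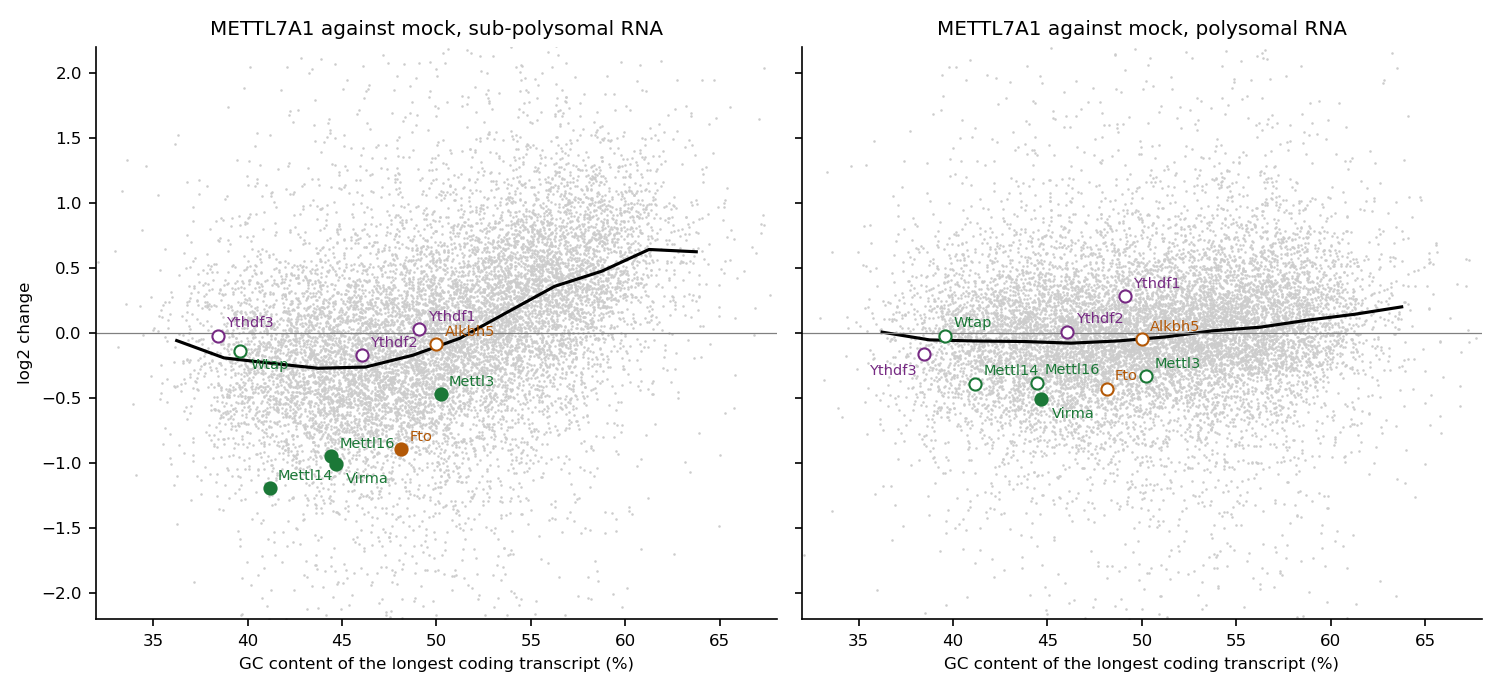
log2 change between METTL7A1 and mock cells against the GC content of the longest coding transcript, in sub-polysomal (left) and polysomal RNA (right). Grey points are the tested genes with a log2 change within 2.2 in either direction and a GC content between 32% and 68%, the black line is the median in bins of 2.5% with at least 100 genes, and filled symbols mark those of the 10 mRNAs that passed. Mettl14, Mettl16, Virma, Fto and Mettl3 lie below the line on the left.

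The difference between the pools went with transcript length. Across the same 12157 genes, the log2 change of polysomal against sub-polysomal RNA had a Spearman correlation with transcript length of 0.53 in mock and 0.52 in METTL7A1 cells. The longest coding transcripts of the 10 mRNAs had a median of 4905 bases, from 2025 for Mettl3 to 12584 for Mettl16, where all tested genes had a median of 2940. The part of length in the polysomal values of the 10 was not tested. The letters GGACT, a frequent form of the m6A motif, occurred on the transcript strand of 87.6% of 21877 coding transcripts, and in each of the 10, from 1 in Ythdf1 and Ythdf3 to 14 in Mettl16. Per kb, their median was 1.09 against 1.03 over all tested genes. No methylation was measured in these libraries.

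The other genes of the pathway were taken from a list of 20, of which 19 passed the filter on low counts. Igf2bp3 had at most 1 count in a library and was not tested. In sub-polysomal RNA between the lines, 6 of the 19 were lower and 3 higher in METTL7A1 cells, where 14.5% of all tested genes were lower and 16.8% higher. In polysomal RNA 0 were lower and 0 higher with edgeR, against 8.28% and 9.69% of all tested genes. At an unadjusted p below 0.05, 1 was lower and 2 higher there, where 1845 of 12224 genes were lower and 1974 higher. DESeq2 and limma-voom also gave 0 in polysomal RNA, where they called 2114 and 2275 of 12224 genes in either direction. The list's median log2 change was -0.19 in sub-polysomal and -0.05 in polysomal RNA. Of the 4 other subunits of the writer complex, Zc3h13, which anchors it in the nucleus, fell from 11.9, 8.81 and 8.88 CPM in mock to 3.65, 4.96 and 2.87 CPM in METTL7A1 sub-polysomal RNA. That is a log2 change of -1.31 (standard error 0.27, adjusted p = 0.00138). Rbm15b, which recruits the complex to RNA, rose there by a log2 change of 0.62 (standard error 0.13, adjusted p = 0.00149), from 48.5, 62.0 and 53.1 CPM to 84.6, 85.9 and 82.5 CPM. That rise was lost with GC offsets (0.27, adjusted p = 0.098). Rbm15 and Cbll1 did not pass, at 0.34 and -0.49.

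Among the other methyltransferases and their partner, Pcif1, which methylates the adenosine next to the cap, rose in sub-polysomal RNA by 0.76 (standard error 0.18, adjusted p = 0.00359). Its mock libraries had 23.1, 44.4 and 35.3 CPM and its METTL7A1 libraries 56.7, 60.8 and 61.0 CPM. Mettl5 and Zcchc4, which methylate ribosomal RNA, and Trmt112, the partner of Mettl5, did not pass. Ythdc1, the nuclear YTH reader, fell by -0.83 (standard error 0.20, adjusted p = 0.00472), from 66.0, 36.5 and 44.8 CPM in mock to 23.9, 24.6 and 32.3 CPM. Ythdc2 had at most 4.04 CPM and no detectable change at this depth. Of the 6 other readers tested, Igf2bp2 (-0.71), Hnrnpa2b1 (-0.76) and Hnrnpc (-0.51) fell and Prrc2a rose (1.09, standard error 0.15, adjusted p = 5.09e-05), while Igf2bp1 and Fmr1 did not pass. The Hnrnpc call was lost without METTL7A1 replicate D (-0.50, adjusted p = 0.0668), E (-0.53, adjusted p = 0.0686) or F (-0.51, adjusted p = 0.0542). With Actb scaling Ythdc1 (-0.60, adjusted p = 0.0551), Hnrnpa2b1 (-0.52, adjusted p = 0.0598) and Hnrnpc (-0.27, adjusted p = 0.29) no longer passed there, and Rbm15, Igf2bp1 and Trmt112 passed as higher. Mat2b, the regulatory subunit for Mat2a, fell by -0.81 (standard error 0.17, adjusted p = 0.00185), and Ahcy, which clears the product of methylation, had -0.01.

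The GC contents of the 19 are given beside their changes in sub-polysomal RNA, and no test was made of them. Prrc2a (60.6%), Pcif1 (56.9%) and Rbm15b (56.4%), which rose, had the highest GC contents of the 19, and Hnrnpc (42.9%), Hnrnpa2b1 (43.9%), Mat2b (43.9%) and Ythdc1 (44.9%), which fell, were below the median of all tested genes. Zc3h13 (50.1%) and Igf2bp2 (51.3%) fell at a GC content near that median. Fmr1 (39.2%) and Ythdc2 (42.0%) had low GC contents and log2 changes of 0.18 and 0.16, and Cbll1, Mettl5, Zcchc4 and Mat2a were below the median and did not pass. With GC offsets the rise of Prrc2a was 0.50 (adjusted p = 0.0115) in place of 1.09. The falls of Ythdc1 (-0.55, adjusted p = 0.0248), Mat2b (-0.53, adjusted p = 0.00981) and Hnrnpa2b1 (-0.47, adjusted p = 0.0319) were smaller with them, while Pcif1 (0.38, adjusted p = 0.0704), Rbm15b (0.27, adjusted p = 0.098) and Hnrnpc (-0.24, adjusted p = 0.199) no longer passed. Zc3h13 (-1.21, adjusted p = 0.00209) and Igf2bp2 (-0.69, adjusted p = 0.00126) still passed as lower with GC offsets, and changed little. Igf2bp1 passed as higher with them (0.52, adjusted p = 0.0365).

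Between the pools, 7 of the 19 were higher in polysomal RNA and 1 lower in mock cells, against 23.3% and 23.7% of all tested genes. In METTL7A1 cells, 9 were higher and 2 lower, against 30% and 29.3%. With Actb scaling 3 of the 19 were higher and 1 lower in mock cells, where 2075 of 12224 genes were higher and 2876 lower. In METTL7A1 cells that scaling left 6 higher and 4 lower, where 2137 genes were higher and 4230 lower. Ahcy had the largest rise in mock cells (1.37, standard error 0.18, adjusted p = 8.76e-06) and a rise of 1.43 in METTL7A1 cells. Hnrnpa2b1 rose by 0.84 in mock and 1.53 in METTL7A1 cells, and Zc3h13 by 1.504 in METTL7A1 cells. These 2 met the stricter rule there, close to its limit of 1.5. With GC offsets both were below that limit, at 1.23 for Hnrnpa2b1 and 1.40 for Zc3h13. Leaving out 1 letter took them down to 1.47 and 1.37 at the lowest, also below it. Cbll1, a ubiquitin ligase of the writer complex, was lower in polysomal RNA of mock cells (-0.77, standard error 0.22, adjusted p = 0.00696), and Pcif1 (-1.15) and Trmt112 (-0.92) were lower in polysomal RNA of METTL7A1 cells. The median log2 change of the 19 was 0.30 in mock and 0.42 in METTL7A1 cells. For the shift 0 of the 19 passed with edgeR and with limma-voom, 5 were higher and 4 lower at an unadjusted p below 0.05 (6.7% and 8.93% of all tested genes), and DESeq2 called 2, Rbm15b and Prrc2a, as lower.

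**Figure D5:**
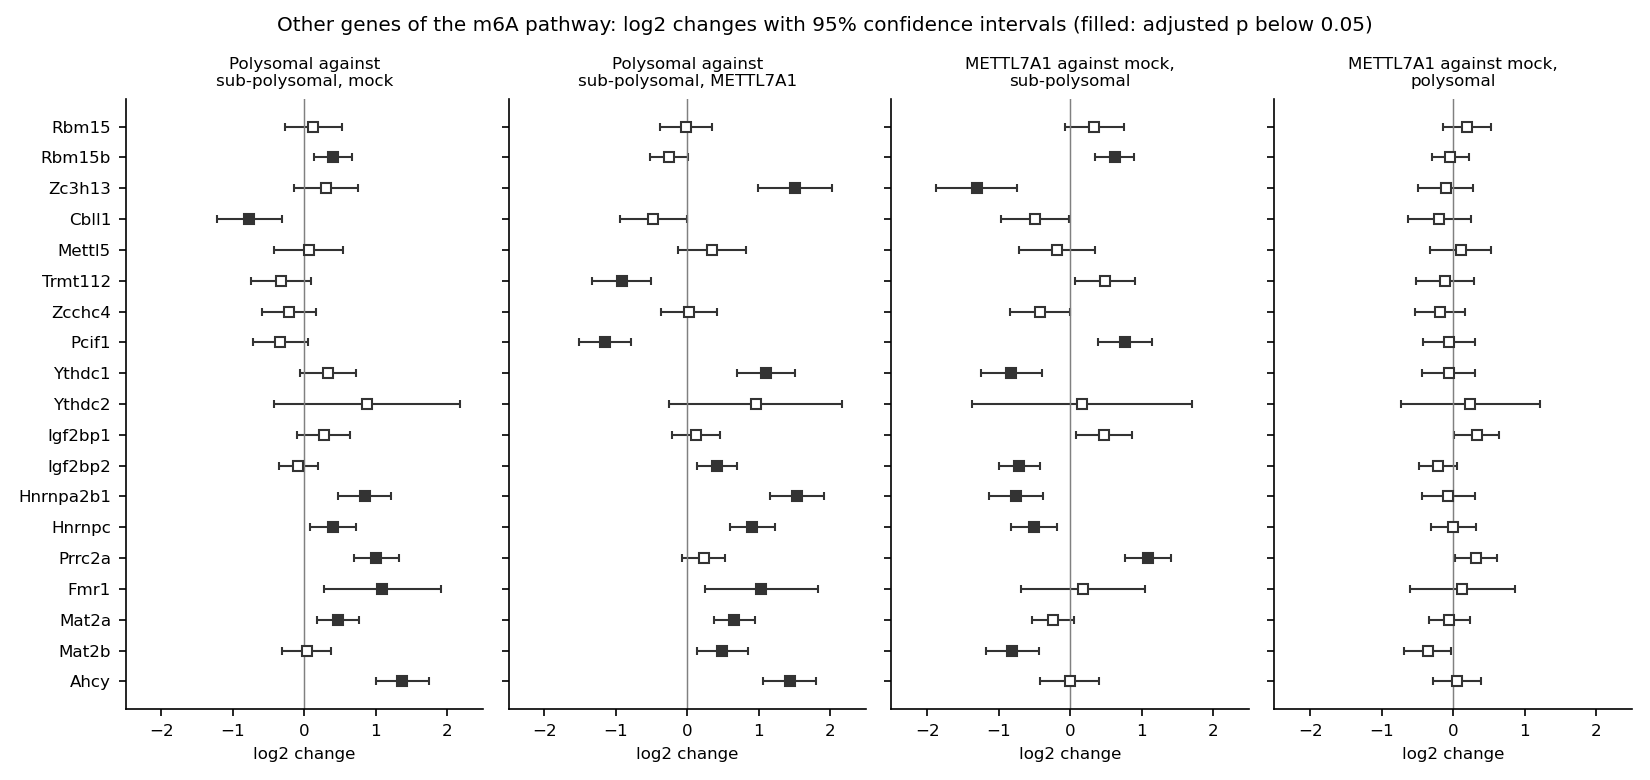
log2 changes of the 19 other pathway genes tested, in the 4 comparisons, with 95% confidence intervals (filled squares passed at an adjusted p below 0.05). In METTL7A1 against mock cells, 9 passed in sub-polysomal RNA and 0 in polysomal RNA.

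The 10 mRNAs also differed in how they varied together over the 12 libraries, which share the contrast between pools and lines. Of the 45 pairs, 11 had a Pearson correlation of log2 CPM above 0.8 and 7 one below 0. Mettl14 and Mettl16 were the closest pair (0.96), followed by Mettl3 and Fto (0.96) and by Mettl14 and Virma (0.93). Mettl3 and Mettl14, the subunits of the catalytic pair, had 0.79. Wtap had the lowest value, -0.43 with Mettl3, and correlated most with Ythdf2 (0.56). Among 9447 other genes with a mean of at least 5 CPM, the one most like Mettl3 was Adk (0.99), with Ncbp2 for Mettl14 (0.98), 4931406C07Rik for Mettl16 (0.99), Nudcd2 for Wtap (0.94) and Mfsd4b4 for Virma (0.98). For the readers these were Usp33 for Ythdf1 (0.94), Cbwd1 for Ythdf2 (0.94) and Cops2 for Ythdf3 (0.96), and for the erasers Cep44 for Alkbh5 (0.98) and Scrn1 for Fto (0.98). Each is the highest of 9447 values over 12 libraries that fall into 4 groups.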

How the data were processed

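Counts per gene had been made and deposited by the authors, without normalization. Their processing notes name bcl2fastq 2.20.0.422, STAR 2.5.3a, R 3.5.1 and featureCounts with mm10 and GRCm38, and the strand setting is not given in the sources used here. Here, edgeR 4.0.16 in R 4.3.3 fitted 1 mean per group to all 12 libraries with TMM factors (quasi-likelihood test, Benjamini-Hochberg adjustment), for genes that reached 1 CPM in 3 or more libraries. CPM values use TMM-scaled totals, and 95% intervals cover the fitted spread between replicates only. Levels per length use merged exon lengths of the count file. Replicates differed by more than sampling noise (chi-square per degree of freedom 5.65 to 24.1). GC content, transcript length and sequences came from GENCODE M21 (GRCm38). Alternatives were RLE factors, DESeq2 1.42.0, limma-voom (limma 3.58.1), Actb scaling, no filter beyond 1 count in total, a stricter threshold, the replicate letter as a block and leaving out each letter. GC offsets (lowess span 0.3) and the transcript length were added after the data were seen. Genes named were the 10 mRNAs, the pathway list, check and cell type markers, and the 1 gene most like each of the 10. The 10 mRNAs and the lists were chosen with earlier results of these data known.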

Additional observations from a re-analysis of the deposited data

How the results depend on the processing

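Of the 17 log2 changes of the 10 mRNAs that passed, 10 passed under each alternative that kept the adjusted p of 0.05, 0 of the 17 met the stricter threshold, and 0 changed direction. Over all 50 log2 changes and 630 alternative values, 550 kept direction and side of the threshold, 29 were no longer past it, 10 newly passed and 41 changed sign, all 41 from values that had not passed. The cause was not tested.

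With Actb scaling, between the lines, Wtap (0.10), Ythdf2 (0.0763), Ythdf3 (0.21) and Alkbh5 (0.15) turned positive in sub-polysomal RNA and Wtap (0.0787) and Alkbh5 (0.0529) in polysomal RNA, Ythdf2 turned to -0.16 in polysomal against sub-polysomal RNA of METTL7A1 cells, and the shifts of Mettl3 (-0.0274), Wtap (-0.0206) and Alkbh5 (-0.10) turned negative. This scaling moved all genes, with medians of 0.26 in sub-polysomal and 0.08 in polysomal RNA between the lines. The medians were -0.18 between the pools of METTL7A1 cells and -0.17 for the shift. Relative to these medians none of the values named changed sign. A common factor per library moves all genes nearly alike, so this does not test the values against the scaling. With GC offsets the sub-polysomal values of Wtap (0.0576), Ythdf2 (0.0883), Ythdf3 (0.13) and Alkbh5 (0.0228), the polysomal value of Wtap (0.0320), Ythdf2 between pools of METTL7A1 cells (-0.19), and the shifts of Wtap (-0.0256), Ythdf2 (-0.0109) and Alkbh5 (-0.0363) changed sign. Ythdf3 was 0.0046 in sub-polysomal RNA without a filter on low counts, and Ythdf2 was -0.0026 with RLE factors and -0.0024 with DESeq2 in polysomal RNA. Leaving out 1 letter at a time, sub-polysomal values lay between -0.0830 and 0.18 for Ythdf1, -0.34 and 0.18 for Ythdf3 and -0.19 and 0.0872 for Alkbh5, polysomal values between -0.13 and 0.14 for Wtap and -0.0592 and 0.0504 for Ythdf2, the pool difference of Ythdf2 in METTL7A1 cells between -0.0076 and 0.21, and the shifts between -0.0482 and 0.44 for Wtap, -0.56 and 0.20 for Ythdf3 and -0.12 and 0.14 for Alkbh5.

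Under the stricter threshold, 0 of the 10 mRNAs passed in each comparison, and of all genes 923 passed between the pools of mock cells, 1480 between those of METTL7A1 cells, 337 in sub-polysomal and 260 in polysomal RNA, with 2 pathway genes between the pools of METTL7A1 cells and 0 in mock cells and in sub-polysomal RNA. With Actb scaling 2 and 4 of the 10 were past the threshold between the pools of mock and METTL7A1 cells. In these comparisons 4951 and 6367 of 12224 genes were, and 4 pathway genes in mock cells. Between the lines in polysomal RNA 0 of the 10 and 1729 of all genes were. In polysomal RNA between the lines, RLE factors gave 2 of the 10 and 2226 of 12224 genes, and no filter 0 and 2357 of 22519 genes. Leaving out a letter gave 0 to 1 of the 10 there, with 0 to 1 pathway genes and 1094 to 2558 of all genes. Between the pools of mock cells, leaving out a letter gave 5 to 7 pathway genes and 4567 to 5572 of all genes. In sub-polysomal RNA between the lines it gave 2468 to 3654 of all genes. For the shift, DESeq2 called 329 genes, 2 of them pathway genes, no filter gave 159, and leaving out a letter 0 to 128.

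Per kb of the longest coding transcript, Wtap stood at 25.1, 19.9, 22.7 and 19.6 and Fto at 4.03, 7.77, 2.07 and 5.76 CPM per kb in mock sub-polysomal, mock polysomal, METTL7A1 sub-polysomal and METTL7A1 polysomal RNA, Virma at 2.40 in mock polysomal RNA, and the Alkbh5 to Fto ratio at 2.76, 1.98, 5.13 and 2.61.

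Pools with the same letter were not treated as pairs, since they did not vary together. With the replicate block, 4 of the 10 were higher in polysomal RNA of mock cells, as were 2672 of all tested genes, while 2717 were lower. For METTL7A1 cells the block gave 7 of the 10 as higher, beside 3567 genes called higher and 3450 called lower. For the shift 0 of the 10 passed with it. The block ended the call of no member.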
